A study of Mus musculus with 12 samples.

Results

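Impact and the H13/Mcts2 pair are imprinted loci of the mouse, and the values described here are those of trimethylation of histone H3 at lysine 9 (H3K9me3) over them in embryonic stem cells with and without Tex19.1. The loci were chosen from their deposited log2 fold changes, which an earlier look at the same table had shown to be its most negative ones, so these values are a description and support no test. Members were taken by position on the build mm10 as every listed region that starts at 12.95 to 13 Mb of chromosome 18 (Impact) or at 152.66 to 152.72 Mb of chromosome 2 (H13 with Mcts2). The rule found 4 of the 68291 listed regions, 1 at Impact and 3 at H13/Mcts2.

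The study set Tex19.1-/- (KO) cells beside Tex19.1+/- (Het) cells, so that the comparison group itself carries a mutant allele and no wild-type cells enter. Per the labels, all cells derive from the E14Tg2a line on a 129/Ola background and were taken at passages 12 to 20, and the series holds 3 immunoprecipitated (IP) and 3 input libraries of KO cells and 3 IP and 3 input libraries of Het cells. The titles gave the genotype of a library, and the genotype field contradicts the title in 6 of the 12. The labels do not say whether a genotype is a single clone or whether its libraries came from separate cultures. Each region of the deposited table has a log2 fold change between genotypes, an average log2 CPM (a signal scaled by the authors), and a p-value with its adjusted form (FDR), with 0 columns of single libraries. Which genotype is the reference of the fold change is not given in the sources used here, so signs are those of the table and no direction is assigned to KO cells. No region lay nearer than 28126 bp to Tex19.1, so the table has no value that checks the genotypes, and cell identity was not checked here because the table holds no RNA values. Errors in what follows are standard errors derived from the authors' p-values, and they may leave out variation between libraries.

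At an imprinted gene the copies from mother and father differ in DNA methylation laid down in the germ cells, and the methylated copy of such a germline differentially methylated region (DMR) also carries H3K9me3. In embryonic stem cells the zinc finger protein ZFP57 binds the methylated DMR and brings in TRIM28, which recruits the H3K9 methyltransferase SETDB1. Impact encodes an inhibitor of the activation of the kinase GCN2, a sensor of amino acid shortage, and is expressed from the paternal copy. H13 encodes signal peptide peptidase, an intramembrane protease. Mcts2 is a retrogene copy of the X-linked translation factor gene Mcts1, it lies inside an intron of H13, and its promoter is a maternally methylated DMR from which the paternal copy is expressed. Transcripts of H13 end at different sites on the parental copies.

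The start of Mcts2 lay inside an H3K9me3 region and the start of H13 did not, and both start windows are printed to show how they differ. Each window runs from 250 bases before to 50 bases after the annotated start on the plus strand, read from the RefSeq table of GRCm38.p6, the assembly that mm10 names, as chr2:152686898-152687197 for Mcts2 and chr2:152669211-152669510 for H13. Capitals mark the hexamer TGCCGC, the letters that ZFP57 is known to bind when methylated, or its reverse complement GCGGCA.
Mcts2: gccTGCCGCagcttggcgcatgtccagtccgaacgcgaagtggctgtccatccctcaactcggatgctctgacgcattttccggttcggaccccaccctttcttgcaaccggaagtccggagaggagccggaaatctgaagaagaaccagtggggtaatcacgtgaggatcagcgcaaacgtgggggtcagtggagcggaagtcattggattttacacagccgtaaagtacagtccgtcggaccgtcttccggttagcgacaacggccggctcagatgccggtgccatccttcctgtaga
H13: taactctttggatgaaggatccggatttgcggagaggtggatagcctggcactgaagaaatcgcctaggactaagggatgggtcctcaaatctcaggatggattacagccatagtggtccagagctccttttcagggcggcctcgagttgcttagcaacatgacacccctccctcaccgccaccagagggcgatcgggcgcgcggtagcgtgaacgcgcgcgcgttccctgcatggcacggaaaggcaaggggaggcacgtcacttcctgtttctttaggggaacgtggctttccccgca

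The Mcts2 window held 1 copy of the hexamer, 247 bases before the start, and the H13 window held 0 on either strand. Of all 32851 start window entries in the RefSeq table (32817 distinct windows), 11.6% held the hexamer. Both windows had a GC share of 58.0%, against a median of 52.7% over all windows. The Mcts2 window had 25 CpG dinucleotides, a ratio of observed to expected CpG of 0.991, and 93.6% of all windows had a lower ratio. The H13 window had 21 CpG dinucleotides and a ratio of 0.836, with 82.1% of windows lower. Both promoters were therefore rich in CpG, but H3K9me3 was listed over the start of the retrogene and not over that of its host, and the nearest region begins 14033 bp after the start of H13. Windows were matched by symbol for 2 of the 3 genes, and no sequence is printed for Impact.

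The region at Impact had the most negative value of the whole table. It spans 2154 bp (chromosome 18, 12972504 to 12974657) near the middle of the annotated gene body, which runs from 12954690 to 12992950, and it covers 5.63% of that body. In the authors' deposited table its log2 fold change was -3.95, its p-value 3.25e-33 and its FDR 2.22e-28, the smallest p-value of all regions. The derived standard error was 0.33, which gives a 95% interval of -4.60 to -3.31, or a 15.5-fold difference with an interval of 9.90 to 24.2. The average signal was 16.9 CPM, higher than in 75.3% of regions, and the region was wider than 87.0% of regions. The annotation used here gives gene bodies without exons, and no start window was available for Impact. The region's place relative to transcript starts, exons and introns was therefore not analysed here, and the middle of the body need not be far from a start.

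At H13/Mcts2 the 3 regions lay side by side within 5745 bp of the H13 body (chromosome 2, 152669422 to 152708668), separated by gaps of 944 and 661 bp, and all had strongly negative values. The third and strongest (152686848 to 152689238, 2391 bp, 20.6 CPM) begins 300 bp before Mcts2, contains the whole retrogene (152687148 to 152687946) and ends 1292 bp past it. The authors' deposited table lists it at a log2 fold change of -2.71 (FDR 1.53e-22), and the derived standard error was 0.25. The second (152684939 to 152686186, 1248 bp, 9.24 CPM) ends 962 bp before the start of Mcts2. Its log2 fold change in the authors' deposited table was -2.39 (FDR 7.97e-07), with a derived standard error of 0.38. The first (152683494 to 152683994, 501 bp, 4.56 CPM) ends 3154 bp before Mcts2 and was not called. Its log2 fold change in the authors' deposited table was -2.16, with a derived standard error of 0.60, a p-value of 0.000325 and an FDR of 0.0861. The value nearest to 0 thus belonged to the weakest region and the one farthest from Mcts2, but the 95% intervals of the 3 regions, -3.33 to -0.98, -3.12 to -1.65 and -3.20 to -2.21 in order along the chromosome, overlapped.

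**Figure D1:**
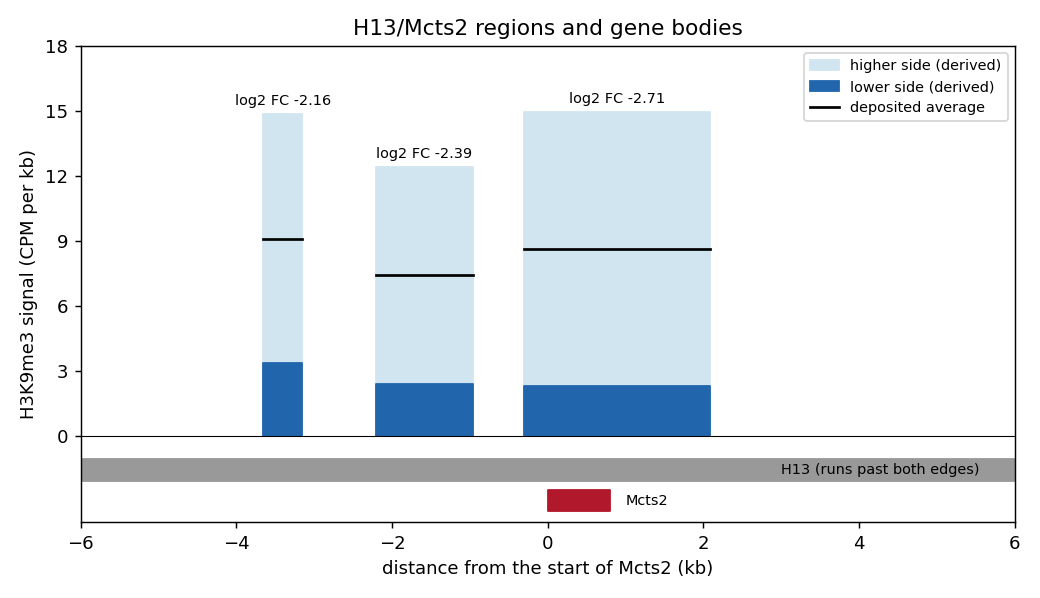
H3K9me3 signal (CPM per kb) over the 3 regions in H13, plotted by distance from the start of Mcts2 (kb). Black lines are the deposited averages, light and dark bars the levels of the higher and the lower side derived from average and fold change, and the bars below 0 the gene bodies; the third region, at -2.71, contains all of Mcts2.

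With an FDR below 0.05 as the call, 3 of the 4 regions were called, all of them negative. Over all regions 0.281% were called, 0.0893% as negative and 0.192% as positive. Because the loci were picked from this comparison, nothing is read from that contrast. The region that missed the call lies close to it in rank: it had the 258th smallest p-value, while the 192 called regions reach to an FDR of 0.0493. By log2 fold change the 4 regions held the 4 lowest places of all 68291, with the next most negative region at -2.03 (FDR 0.552, 3.33 CPM) and the next most negative called region at -1.24, both in the authors' deposited table.

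Regions of like signal describe the spread of the table at the signal of each member. Among the 13812 other regions within 0.5 log2 CPM of the Impact region, the median log2 fold change in the authors' deposited table was -0.02, the middle 90% lay between -0.38 and 0.40, and the lowest value was the -2.71 of the H13/Mcts2 region that holds Mcts2. Of those regions 18 were called, 4 of them negative. Around the strongest H13/Mcts2 region, 11725 regions of like signal had a median of -0.03 with 90% between -0.35 and 0.38, and 1 of them, Impact, was more negative. The second H13/Mcts2 region was lower than all 19667 regions of like signal, whose lowest was -1.24, and the first was lower than all 21796, whose lowest was -2.03. The loci were chosen for holding the lowest values of the table, so these places were fixed in advance and nothing is read from them. At the level of the first region the spread was wide, with 90% of values between -0.76 and 0.87 and 1 call among them, so a change had to be large to be called there.

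**Figure D2:**
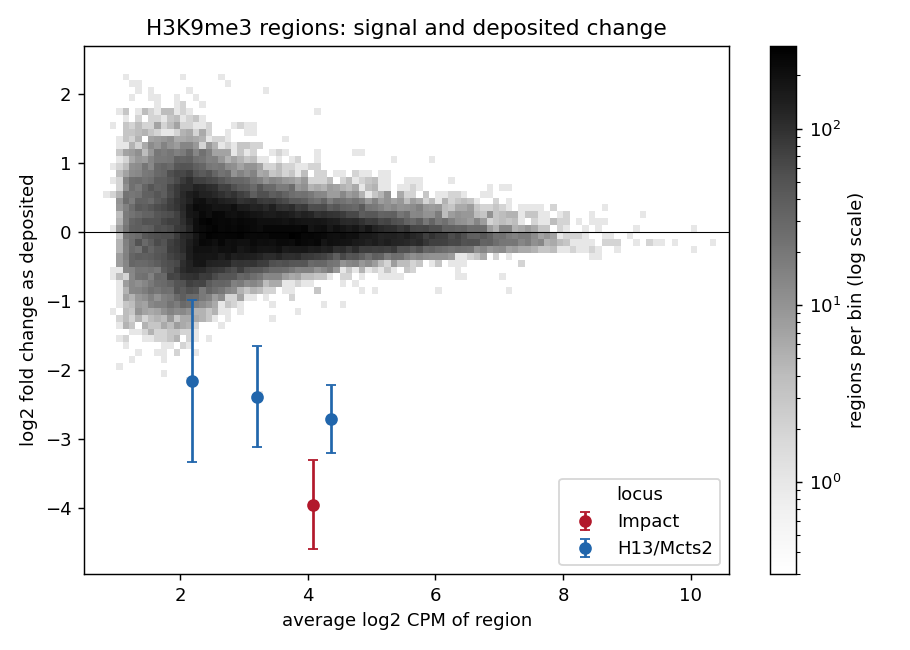
Deposited log2 fold change against average log2 CPM. Grey bins count all listed regions (log scale), and points with 95% intervals from derived errors are the Impact region (red) and the 3 H13/Mcts2 regions (blue). The points lie from -3.95 to -2.16, a low place that follows from the choice of the loci by value.

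The average signal per kilobase was low at these regions. Averages were 7.87 CPM per kb at Impact and 9.10, 7.40 and 8.63 CPM per kb along H13, against a median of 11.3 over all regions, and 0.936% of regions had less than Impact. A large fold change lowers such an average, so these low averages depend in part on the values by which the loci were chosen. If the average CPM is taken as the plain mean of the 2 genotypes, an assumption that the sources do not state, the fold change splits it into a higher and a lower side. At Impact the sides come to 31.8 and 2.06 CPM, or 14.8 and 0.954 CPM per kb. At the region over Mcts2 they come to 35.8 and 5.49 CPM, or 15.0 and 2.29 CPM per kb. The lower sides of the first and second H13/Mcts2 regions come to 3.34 and 2.38 CPM per kb. These levels restate the average and the fold change by which the loci were chosen, with the errors given above, and they cannot be set against the averages of other regions. In a bulk measurement, fewer cells or gene copies with the mark and less of the mark on each copy cannot be told apart.

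**Figure D3:**
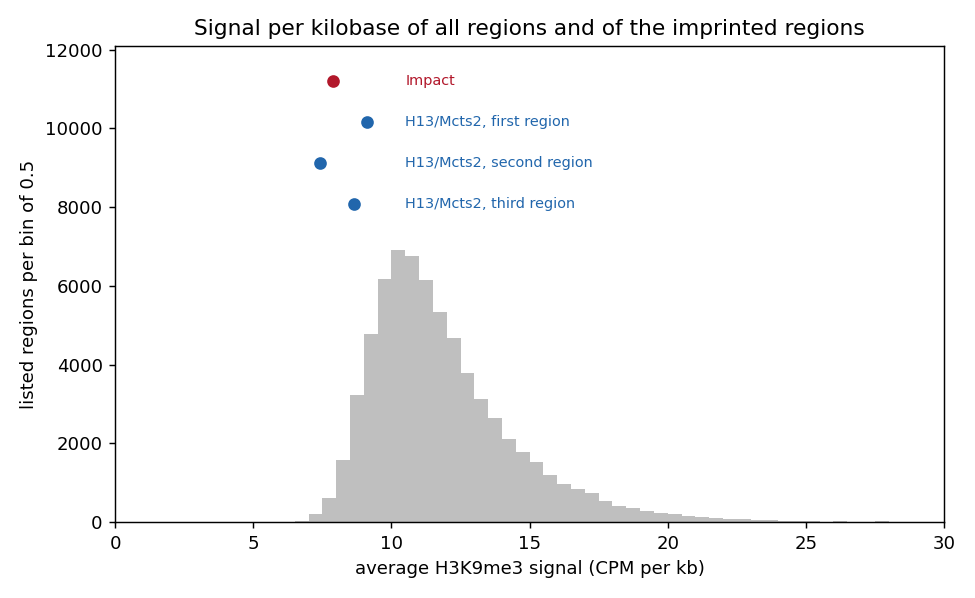
Grey bars count listed regions by average H3K9me3 signal (CPM per kb, bins of 0.5, drawn up to 30). Above them, coloured points mark the deposited averages of the 4 imprinted regions, from 7.40 to 9.10, left of the median of 11.3. These averages depend in part on the fold changes by which the loci were chosen.

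No listed neighbour had a value of like size. The members hold the lowest places of the whole table, so no neighbour could have been as negative, and nothing is read from that contrast. Within 500 kb of the Impact window there were 20 other regions, of which 14 were negative and 6 positive, with a median log2 fold change of -0.10 and a range of -1.37 to 0.29 in the authors' deposited table. None was called by the authors' FDR, 1 had an unadjusted p-value below 0.05, and the median derived error was 0.35. Over all regions 0.281% were called and 4.74% had an unadjusted p-value below 0.05, so so small a set would be likely to show counts of this size. For the nearest regions on either side, 81.1 kb before in Osbpl1a, a gene of lipid transport, and 96.4 kb after in no gene, the authors' deposited table lists -0.15 and 0.29, both at an FDR of 1. For the neighbour of highest signal, in the laminin gene Lama3 (25.8 CPM), the authors' deposited table lists -0.14 (FDR 1), and for that of smallest p-value, a weak region of 4.13 CPM that is 322.6 kb away, -1.37 (FDR 0.852). Among the 6 neighbours at a log2 CPM of 4 or more, all negative, values ran from -0.34 to -0.03.

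Around H13/Mcts2 there were 18 other regions, 10 negative and 8 positive. They had a median of -0.05 and a range of -1.21 to 0.47 in the authors' deposited table. They held 0 calls and 1 unadjusted p-value below 0.05, against 0.281% and 4.74% of all regions. The nearest region before, 37.7 kb away in the noncoding RNA gene Gm31791, is listed at 0.24 in the authors' deposited table, and the nearest after, 98.5 kb away in the apoptosis regulator gene Bcl2l1 (49.5 CPM), at -0.15, both at an FDR of 1. The region in Bcl2l1 is the better measured of the pair, with a derived error of 0.13 and an interval of -0.41 to 0.11. For the region of highest signal, between genes and 476.3 kb before (72.9 CPM), the authors' deposited table lists -0.06 (FDR 1), and for that of smallest p-value, in Ttll9, a gene of the tubulin ligase family, 0.30 (FDR 0.960). A cluster of 11 beta-defensin genes upstream of H13 held 5 of the regions, with values from -1.21 to 0.47, 0 calls by the authors' FDR and 0 unadjusted p-values below 0.05. Of the 33 other protein-coding genes in the stretch, 6 had a region over their body, and around Impact 3 of 5 did.

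**Figure D4:**
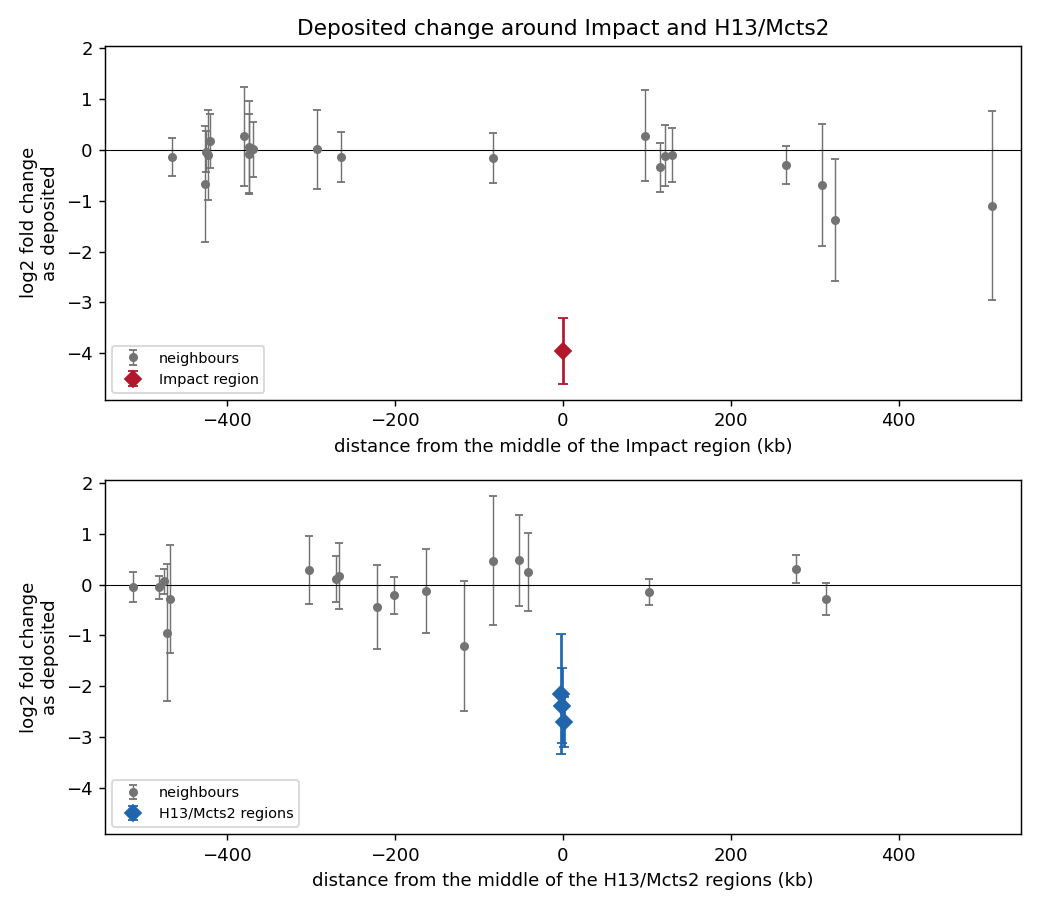
Deposited log2 fold change with 95% intervals from derived errors, by distance (kb) from the middle of the Impact region (top) and of the H13/Mcts2 regions (bottom). The 20 and 18 grey neighbours lie between -1.37 and 0.47, and the coloured imprinted regions between -3.95 and -2.16.

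Other imprinted loci were listed under a label of maternal or paternal methylation, and each was represented by its region of highest signal within 5 kb. These labels were not checked in these data. Positions of DMRs were not used, so the region of a locus need not lie over its germline DMR. No start window of the loci Rasgrf1, Slc38a4, Gnas/Nespas or Inpp5f lay in a region, and some other loci had no start window. The Slc38a4 region had 501 bp and 5.14 CPM. The signs below are therefore those of regions near imprinted genes. Of 18 maternally methylated loci 17 had a region, and the strongest region was negative in all 17 and called in 4, each negative: Impact, H13/Mcts2, Mest and Gnas/Nespas. Over all regions 50.8% were negative, but of the 2331 regions at a log2 CPM of 6 or more, where 11 of the 17 loci lie, 70.7% were negative, with a median of -0.08. The list was drawn up with earlier results of this table known, so its direction is not independent evidence. Without Impact and H13/Mcts2, which were chosen by value, 2 of the other 15 loci were called, against 0.281% of all regions. The share called among regions of like high signal, where derived errors are small, was not computed. The median of the other 15 loci was -0.12, with a range of -0.90 to -0.0075, against -0.0058 over all regions. For Mest, a gene of the hydrolase fold family and the third in order, the authors' deposited table lists -0.90 (FDR 5.75e-24, derived error 0.08), and for Gnas/Nespas, the locus of a stimulatory G protein, -0.29 (FDR 0.00761, derived error 0.07). The loci that follow Mest mostly lie within each other's intervals. Among all listed loci, the 4 of highest signal that were not called were Nnat/Blcap (265.2 CPM) at -0.04, Peg13/Trappc9 (263.7 CPM) at -0.12, the paternally methylated H19 (201.1 CPM) at 0.08 and Airn/Igf2r (141.7 CPM) at -0.02 in the authors' deposited table, with derived errors from 0.06 to 0.08.

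By the average over both genotypes, the strongest regions of Impact and H13/Mcts2 were also among the weakest of these loci. By average signal they were 16th and 15th of 17, and by signal per kilobase 17th and 16th. A large fold change lowers such an average, so these ranks depend in part on the values by which the loci were chosen. Under the assumption of a plain mean, which the sources do not state, the derived higher sides were 14.8 and 15.0 CPM per kb. At the other loci they ran from 10.6 at Slc38a4 to 27.5 at Nnat/Blcap. For Impact and H13/Mcts2 these levels restate the fold change by which they were chosen, so nothing is read from that contrast. The other 15 loci had a median of 83.4 CPM and 16.2 CPM per kb. The 4 loci listed as paternally methylated, H19, Meg3/Dlk1, Rasgrf1 and Zdbf2, had values from -0.06 to 0.75 in the authors' deposited table. Of these 3 were positive, 1 was negative and 0 were called by the authors' FDR. Zdbf2, at 0.75, came close to the call, with a deposited p-value of 0.000236 and an FDR of 0.0705. Its interval ran from 0.35 to 1.16, and 3 of its 5 regions had an unadjusted p-value below 0.05.

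**Figure D5:**
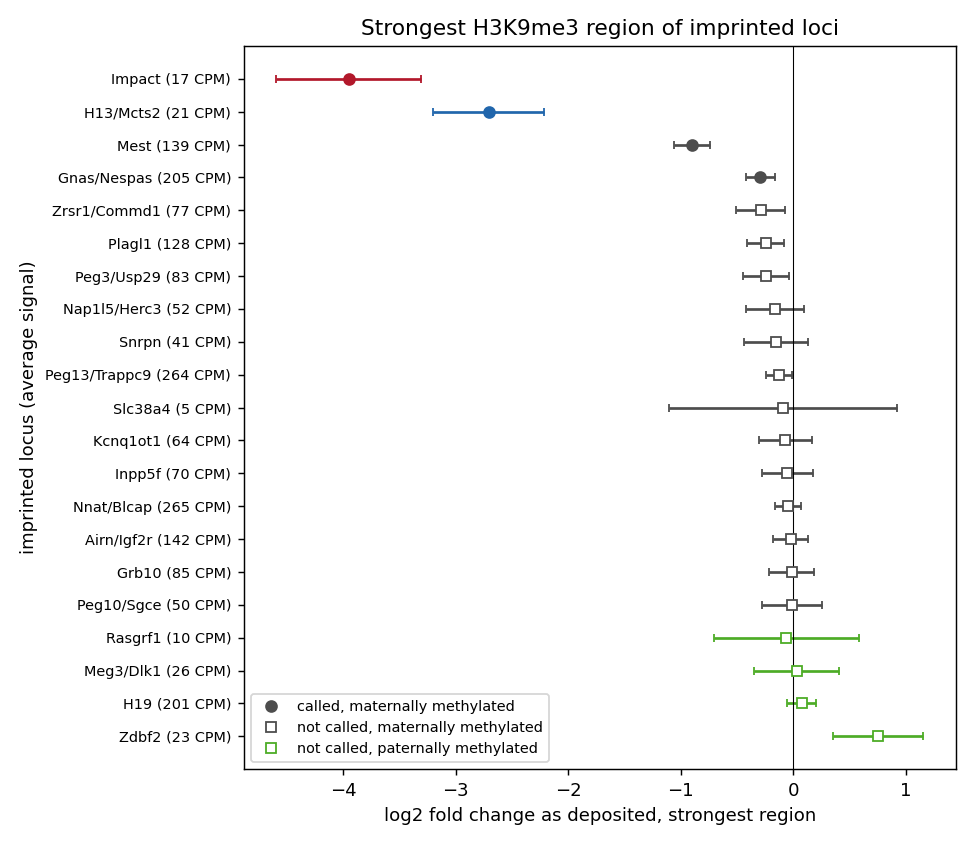
Deposited log2 fold change of the strongest region at each imprinted locus, with 95% intervals from derived errors and average signal in brackets (CPM). Filled circles are called and open squares are not. Impact (-3.95) and H13/Mcts2 (-2.71) lie left of Mest (-0.90), and the loci listed as paternally methylated (green) lie from -0.06 to 0.75.

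Several imprinted genes share the arrangement of Mcts2, a paternally expressed gene inside the intron of another gene. Nap1l5 in Herc3 had a strongest region at -0.16 (derived error 0.13), Zrsr1 in Commd1 at -0.29 (0.11) and Peg13 in Trappc9 at -0.12 (0.06) in the authors' deposited table, and the region at Inpp5f, which holds an imprinted internal transcript, had -0.05 (0.11). None of these 4 was called by the authors' FDR, against 0.281% of all regions. Zrsr1/Commd1 and Peg13/Trappc9 had an unadjusted p-value below 0.05, as had 4.74% of all regions. The largest of these differences, 1.22-fold at Zrsr1/Commd1, stands beside 6.52-fold at the region over Mcts2 (interval 4.63 to 9.19). That region was chosen by its value, and the pairs were named after their values were seen. Nothing is therefore read from the contrast. Mcts1, the X-linked parent gene of Mcts2, had 0 regions within 5 kb, and the nearest was 133503 bp away.

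Start windows of the other imprinted genes were compared in the same way. The RefSeq table had 42 entries for 28 of the listed imprinted genes, which are 41 distinct windows because Snrpn and Snurf share one, and 2 windows of Mest differ by 3 bp. Of the 41 windows, 17 lay in a region, at 16 genes. The hexamer was in 12 of the 41, or 29.3%, and in 9 of the 17 in a region. The Mcts2 window had the highest ratio of observed to expected CpG of the 41, with 0.814 as the next highest among those in a region. Besides that of Mcts2, the windows with the hexamer that lay in a region were those of Mest (2 windows), Snrpn with Snurf, Nap1l5, Nnat, Plagl1, Meg3 and Zdbf2. The regions over the windows of maternally methylated loci had -0.90 at Mest, which was called, -0.24 at Plagl1, -0.16 at Nap1l5, -0.15 at Snrpn and -0.04 at Nnat in the authors' deposited table. Those over the windows of loci listed as paternally methylated had 0.08 at Meg3 and 0.64 at Zdbf2 in the same deposited table. The label is that of the locus, and which copy is methylated at a given window was not examined. The Zdbf2 window in a region starts at 63200108 of chromosome 1. Another Zdbf2 window, at 63273019, lay in no region.

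The mark was also read at genes of the machinery that marks and maintains imprinted DMRs. Of 18 such genes, among them Zfp57, Trim28, Setdb1 and Dnmt1, 7 had a region within 5 kb. Their 16 regions held 0 calls by the authors' FDR and 0 unadjusted p-values below 0.05, against 0.281% and 4.74% of all regions. The strongest region, at Zfp445, a zinc finger gene that acts beside ZFP57 at imprints (132.4 CPM), had 0.10 with a derived error of 0.08, and the strongest regions of the 7 genes ran from -0.16 to 0.12 in the authors' deposited table. Zfp57, Trim28, Setdb1 and Dnmt1 themselves had no region, so the table says nothing of the mark at them, and it holds no measure of their expression.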

How the data were processed

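The data used are the authors' deposited comparison of H3K9me3 ChIP-seq between genotypes over 68291 regions, per the file headers. Tools named by the submitters' processing notes, without role or order, are edgeR (no version), bedtools 2.25.0, HOMER 4.8 and Bowtie2 2.2.6, and the build is mm10. The values are the authors' deposited log2 fold change and average log2 CPM, and the authors' deposited p-value and FDR. Library totals, the use of input and the definition of regions are not stated there, so the depth is unknown. The CPM of all regions sum to 1081650, near what scaling to reads within listed regions would give, and a shift shared by all regions would then be hidden.

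The deposited FDR differed from a Benjamini-Hochberg adjustment of the p-values by at most 3.2e-05. A region was called at an FDR below 0.05. Derived standard errors are the absolute log2 fold change over the normal deviate of the 2-sided p-value for 19017 regions with a deviate of 1 or more, and elsewhere the median among regions of similar log2 CPM; the steps were checked on simulated data. Intervals are normal 95% intervals and cover what the authors' test covers. Widths count both end positions.

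The 49997 genes of the RefSeq table (GRCm38.p6) gave gene bodies, and all 53 list symbols matched by symbol or synonym. Members and lists were chosen with earlier results of these data known. The rule for named genes took all regions of both windows, the nearest, strongest and smallest-p neighbours, and among imprinted loci those called and the 4 strongest not called; the gene pairs compared with Mcts2, Inpp5f, the unadjusted p-value at Zdbf2, and the hexamer windows, were named after their values were seen. Alternatives were other thresholds, adjustments, member rules, distances and centrings. Python 3.11.15, numpy 2.4.6, pandas 2.3.3, scipy 1.17.1 and matplotlib 3.10.9 were used.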

Additional observations from a re-analysis of the deposited data

How the results depend on the processing

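The count of 3 called regions at Impact and H13/Mcts2 was the same at an FDR below 0.01, under Holm adjustment, without chromosomes 11 and 16, without X and Y, without regions shorter than 1000 bp and with members taken by overlap of the gene bodies, plain or extended by 5000 bp. Relative to the chromosome median, to regions of like signal or to neighbours, Impact had -3.92, -3.93 and -3.85, and the region over Mcts2 -2.70, -2.68 and -2.65. The neighbours' median was -0.14 around Impact within 250 kb and -0.10 within 1 Mb, and 0.11 and 0.04 around H13/Mcts2, where the -0.05 within 500 kb turned sign at a size under the derived errors. The count of 4 called imprinted loci was the same for gene bodies alone, within 10 kb and at an FDR below 0.01. All 28 alternatives run left the direction of called values and these counts unchanged. No paired analysis was possible because the table has no columns of single libraries, and for the same reason leaving out a replicate, another normalization and a filter on low counts were not run. The median derived error among regions with the signal of the first H13 region was 0.53, and that region missed the call at -2.16 with an error of 0.60, so weak regions could miss it even at large values.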

Other observations

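Across the genome, 897 of the 32851 start window entries (2.73%) lay in an H3K9me3 region, at 814 regions with a median log2 fold change of -0.0007 and 8 negative and 11 positive calls in the authors' deposited table. Of the 2854 windows with an observed to expected CpG ratio of at least 0.6 and the hexamer TGCCGC, a pair of features chosen after the Mcts2 window had been seen, 32 lay in 29 regions. These had a median of -0.04 and 2 calls, both negative, the region over Mcts2 and that over Mest, and the most positive of them had 1.46. The share called was 6.90%, against 2.33% of the 814 regions. It was 3.39% for the hexamer without the CpG limit and 4% for the CpG limit without the hexamer being required. The region over Mcts2 is the one whose window led to the choice of features, so nothing is read from these shares.

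A log2 fold change beyond 2 in either direction was deposited for 15 regions. The negative side holds the 4 regions at Impact and H13/Mcts2 and 1 other, and the positive side holds 10, of which 7 lie on chromosome 16 and 3 were called. The 11 regions outside the imprinted loci had a log2 CPM of 1.16 to 3.32, against 4.08 at Impact and 2.19, 3.21 and 4.37 along H13/Mcts2.

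Among the 683 regions in the lowest 1% by signal per kilobase, under 7.89 CPM per kb, 2 are the Impact region and the second H13/Mcts2 region. The place of these 2 depends in part on the values by which the loci were chosen. Of the other 681, 3 were called (0.441%, against 0.277% of all regions without the 4 at Impact and H13/Mcts2). They were positive regions in Fat1, in Nrip1 and between genes on chromosome 16, at 1.51, 2.10 and 2.29 in the authors' deposited table. The median absolute log2 fold change of the 681 was 0.64, against 0.22 over all regions, and their median log2 CPM was 2.51, against 3.08.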
